A study of Homo sapiens with 8 samples.

Results

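The 43 genes described here come from a list of names chosen with earlier results of these data known. They are genes of synaptic vesicles, of the SNARE fusion machinery and of the presynaptic active zone. They were represented by 70 of the 50599 gene probes, and by 43 of the 36337 gene names, on a one-colour Agilent human expression array. RNA of 2 thyroid cell lines was hybridised to 8 arrays, 2 per group. Nthy-ori 3-1 cells, an immortalized line of non-tumour follicular thyroid cells, carried pre-miR-375, a synthetic form of the microRNA, at 5 nM (labelled ORI_premiR-375) or the control (ORI_CTL). The TT line came from a medullary carcinoma, the tumour of the calcitonin-producing C cells of the thyroid, and its cells carried antagomiR-375, an antisense inhibitor, at 20 nM (TT_AntagomiR-375) or the control (TT_CTL). All cells were transfected for 48 h with the same lipid reagent, and the controls carried a reagent too, which the labels name only CTL and the methods name pre-miR-CTL and antagomiR-CTL. The doses are those of the labels, and the methods of the study give higher ones. Each line is a single established cell line, so a difference between the lines is one between these 2 cultures and not between cell types.

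On every array 62976 spots were read, 58717 of them for genes. Of these gene spots, 32071 to 37340 were well above background by the scanner software's own test, and 0 were saturated. The RNA integrity number was 9 except on the 2 TT_CTL arrays, where it was 8, so integrity and antagomiR-375 cannot be told apart in TT cells. Arrays with the same number in a line lay on 1 slide and each slide held 1 line, so line and slide cannot be told apart either. The array held no probe under the name of miR-375, so the transfections could not be checked on it. Each array measured the RNA of a whole culture, in which fewer cells with a transcript and less transcript per cell cannot be told apart. Of 5 measured C cell and neuroendocrine markers, 5 were well above background on all 4 TT arrays and 0 on all 4 Nthy-ori 3-1 arrays, where CEACAM5 and SST were above it on no array. Of 6 thyroid follicular markers, TG, PAX8 and FOXE1 were well above background on all 4 Nthy-ori 3-1 arrays, whereas TSHR and NKX2-1 were so on none. On all 4 TT arrays TG, PAX8, NKX2-1 and SLC5A5 were well above background, and on the control arrays TG and NKX2-1 were higher in TT cells and PAX8 and FOXE1 lower. Of 6 neuronal markers, 3 were well above background on all 4 Nthy-ori 3-1 arrays and 6 on all 4 TT arrays.

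A secretory vesicle fuses with the plasma membrane when a SNARE protein of the vesicle, such as a VAMP, pairs with SNAREs of the target membrane, the syntaxins and SNAP-25 or SNAP-23. Synaptotagmins sense the calcium that triggers fusion, complexins clamp and then promote it, and Munc13 proteins prime the vesicle. Bassoon, Piccolo, RIM and ELKS proteins build the active zone, the site at which neurons release transmitter. Neuroendocrine cells such as C cells use much of the same machinery to release peptide hormones from dense-core granules, and some of its members, such as SNAP-23, syntaxin 4 and VAMP3, serve secretion in most cells. Several of the neuronal members carry an RE1 element, bound by the repressor REST, which keeps neuronal genes silent in other cells.

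The sequences below are those to which the results on responses return. The first is mature miR-375 from RefSeq (GRCh38.p14, chr2:219001648-219001669, minus strand), with its seed, bases 2 to 8, in capitals. The others are the 60-base probes, as deposited, that stood for STX2 and SNAP23, the genes past the fold downward after pre-miR-375, and 2 of the 5 probes of SYT2, which gave results that depended on the probe.

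hsa-miR-375-3p: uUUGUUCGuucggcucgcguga

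STX2 probe A_24_P364296: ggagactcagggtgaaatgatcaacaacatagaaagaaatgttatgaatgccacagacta

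SNAP23 probe A_33_P3305974: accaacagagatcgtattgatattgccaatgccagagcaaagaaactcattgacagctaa

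SYT2 probe A_33_P3327771: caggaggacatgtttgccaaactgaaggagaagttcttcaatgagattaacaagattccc

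SYT2 probe A_33_P3397785: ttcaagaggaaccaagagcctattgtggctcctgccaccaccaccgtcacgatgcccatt

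The coordinates deposited with the probes are those of hg19, and no exon annotation of that build was used here. The STX2 probe lay at chr12:131283131-131285707 on the minus strand, a span of 2577 bases for 60 bases of probe, so it crosses an exon junction. The SNAP23 probe lay at chr15:42823617-42823676 on the plus strand and ends in taa, the stop codon of the gene. SYT2 probe A_33_P3397785 lay at chr1:202574829-202574888 on the minus strand, upstream of the other SYT2 probes. The coordinates given for A_33_P3327771, chr1:202559724-202559732, cover only 9 bases, so its place in the gene cannot be read from them. The letters GAACAA, complementary to seed bases 2 to 7, were searched for in the strand given for each probe and were in 0 of these 4 probes. They occurred in 2 of the 70 probes of the 43 genes (2.86%) and in 1117 of all 50599 gene probes (2.21%). They were SYT2 probe A_23_P104098, which begins gcaaGAACAAgtagacagca, with the letters in capitals, and ERC2 probe A_24_P205045, whose readings are given with the responses.

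Where a gene had several probes, the one with the highest mean over the 8 arrays stood for it. All levels are log2 of the processed signal after quantile normalization, and levels of different probes are not compared with each other. Of the 43 genes, 25 were well above background on all 8 arrays. SYT4, CPLX2 and UNC13A were so on all 4 TT arrays and on no Nthy-ori 3-1 array, and the probes that stand for SYT6, SYT9 and SLC17A6 were so on none. The other 12 genes, among them SYP, SYT1 and SYT13, were above background on some arrays.

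**Figure D1:**
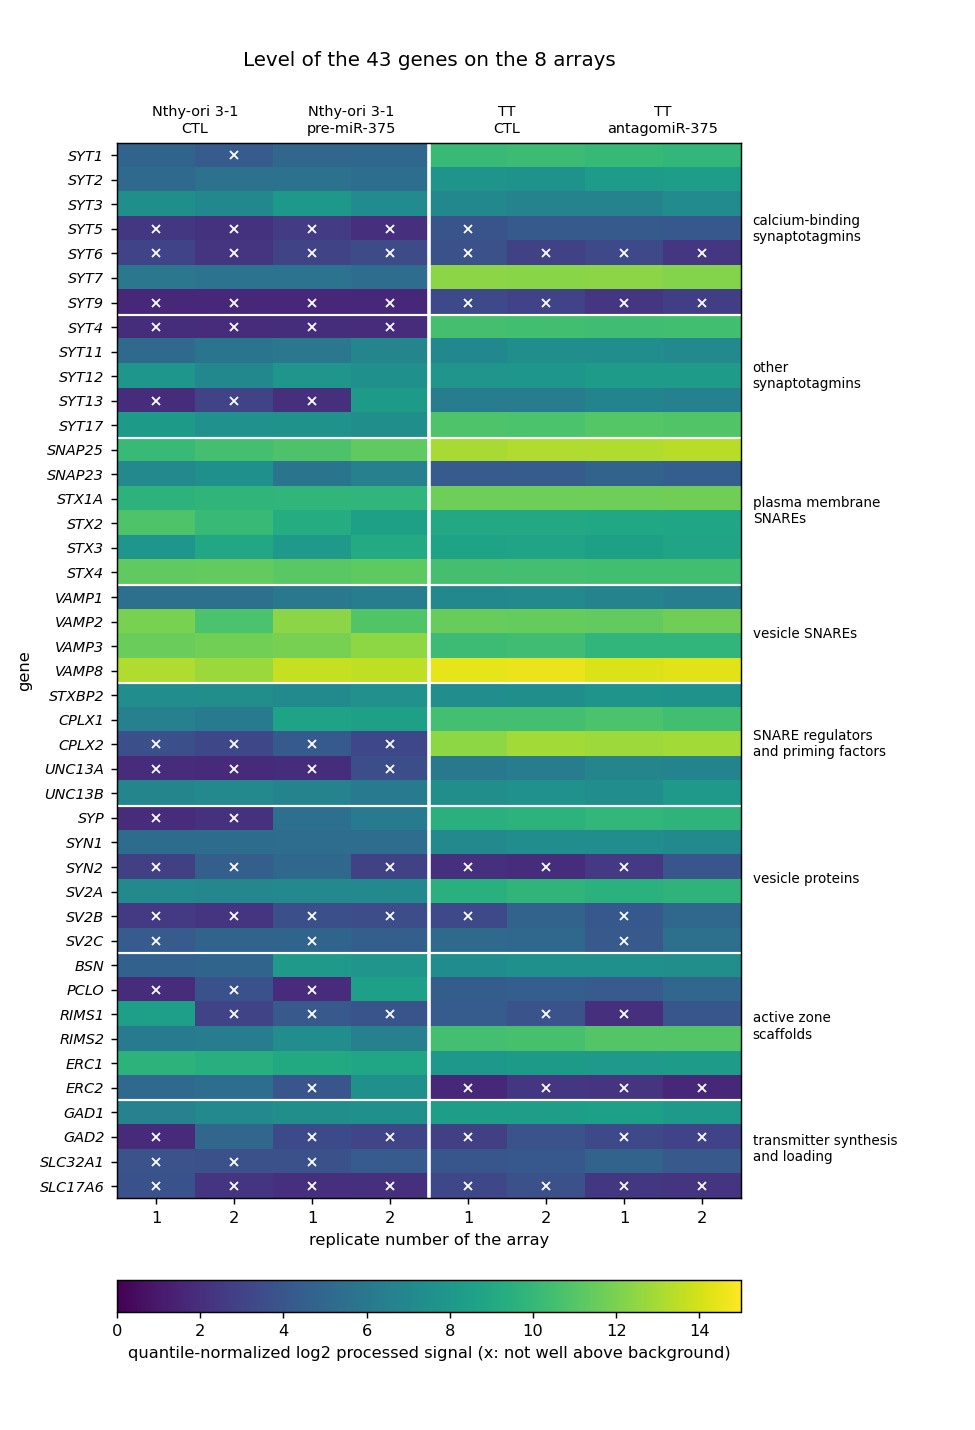
Quantile-normalized log2 signal (colour) of the probe that stands for each of the 43 genes (rows, by role) on the 8 arrays (columns, by group and replicate number); a white cross marks a value not well above background. Colours are to be compared along a row, where the TT arrays are brighter for genes such as CPLX2, SYT4, SYT7 and SYP and dimmer for SNAP23 and VAMP3.

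The first comparison asked how far the genes differed between the lines, on the control arrays alone. Most of the neuronal members that differed were higher in TT cells, and 3 of those that most cells use were lower. Of the 43 genes, 20 were higher in TT cells, against 11.4% of all 36337 gene names, and 4 were lower, SNAP23, ERC1, ERC2 and VAMP3, against 10.0%. A gene was called when the limma adjusted p was at most 0.05, the log2 difference at least 1 and the probe well above background on both arrays of the higher group. On both arrays of at least 1 group, 35 of the 43 genes and 22691 of all gene names were well above background. The median log2 difference was 1.52 over the 43 genes and -0.05 over all gene names. Of the 9 genes listed as broadly expressed, SNAP23, STX2, STX3, STX4, VAMP3, VAMP8, STXBP2, ERC1 and UNC13B, 1 was higher and 3 were lower, with a median of -0.84. Of the other 34, 19 were higher and 1 was lower, with a median of 1.75. Of the markers given above, 5 of 5 C cell and neuroendocrine and 5 of 6 neuronal ones were also called higher in TT cells, RBFOX3 being the exception at -0.80 (limma adjusted p = 0.182), and their part in these counts was not tested.

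Among the calcium-binding synaptotagmins, 3 of 7 were higher in TT cells and 0 lower. SYT7, a high-affinity calcium sensor of slow and dense-core granule release, read 5.94 and 5.69 in control Nthy-ori 3-1 cells and 12.41 and 12.32 in control TT cells. The difference was 6.55 ± 0.16 on the log2 scale (SE, n = 2 per line, limma adjusted p = 0.00142). SYT1, the fast calcium sensor of neurons, read 4.81 and 4.29 in Nthy-ori 3-1 cells, well above background on 1 of 2 arrays, and 10.10 and 10.27 in TT cells. Its difference was 5.64 ± 0.25 (SE, limma adjusted p = 0.00304). SYT7 and SYT1 did not overlap between the lines. Here and below, the share of all gene names without such overlap was not counted. With 2 arrays against 2, a lack of overlap alone gives an exact permutation p no lower than 0.333. SYT2 was the third gene called, and its probes are described with the responses. SYT3 read 7.49 and 7.02 against 7.01 and 6.71 and was not called.

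Of the 5 other synaptotagmins, which bind calcium weakly or not at all, 4 were higher in TT cells. SYT4, a synaptotagmin of dense-core granules, read 1.94 and 1.91 in control Nthy-ori 3-1 cells, not well above background, and 10.60 and 10.47 in control TT cells. It was at least 72.3-fold higher in TT cells (limma adjusted p = 0.00125), where the bound takes the lowest signal well above background on each Nthy-ori 3-1 array as the dim level. SYT17 differed by 2.90 and SYT11 by 1.72, and SYT13 was at least 3.94-fold higher. SYT12, at 7.90 and 6.99 against 7.80 and 7.86, was not called.

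Among the SNAREs the directions were mixed. Of the 6 plasma membrane SNAREs, SNAP25 and STX1A, the neuronal pair, were higher in TT cells by 2.77 ± 0.24 and 1.96 ± 0.13 (SE). SNAP23, which replaces SNAP-25 outside neurons, read 7.08 and 7.55 in Nthy-ori 3-1 cells and 4.28 and 4.37 in TT cells, a difference of -2.99 ± 0.22 (SE, limma adjusted p = 0.00732), and of -1.36 with normexp background correction. SNAP25 and SNAP23 thus differed in opposite directions, each without overlap between the arrays of the lines. STX2 read 10.85 and 10.15 against 9.04 and 9.06, a difference of -1.45 that missed the threshold (limma adjusted p = 0.051). STX4 differed by -0.84 at a limma adjusted p of 0.025, under the size asked for. Of the 4 vesicle SNAREs, VAMP1 and VAMP8 were higher in TT cells by 1.52 and 1.54. VAMP3, the broadly used partner of these SNAREs, read 11.56 and 11.81 in Nthy-ori 3-1 cells and 10.29 and 10.41 in TT cells, a difference of -1.33 ± 0.16 (SE, limma adjusted p = 0.0175). VAMP2, the neuronal vesicle SNARE, differed by 0.14 at the probe that stood for it, by 1.36 and 2.65 at its other probes, so its size depends on the probe.

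Of the 5 SNARE regulators and priming factors, 3 were higher in TT cells. CPLX2, a complexin, read 3.63 and 3.27 in Nthy-ori 3-1 cells, not well above background, and 12.45 and 12.91 in TT cells, at least 320-fold higher (319.9, limma adjusted p = 0.00164). Its other probes differed by 1.32 and 4.15, so the sizes of the 3 probes spread widely while all had higher means in TT cells. CPLX1, the second complexin, read 6.53 and 6.19 against 10.50 and 10.53, a difference of 4.15 ± 0.18 (SE, limma adjusted p = 0.00298). UNC13A, the neuronal Munc13, read 1.93 and 1.84, not well above background, against 6.08 and 6.35 and was at least 3.62-fold higher (limma adjusted p = 0.00237). UNC13B and STXBP2, used in many secretory cells, differed by 0.56 and 0.04 and were not called.

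Of the 6 vesicle proteins, SYP, SYN1 and SV2A were higher in TT cells. SYP, synaptophysin, a membrane protein of small vesicles used as a neuroendocrine marker in pathology, read 1.91 and 2.11 in Nthy-ori 3-1 cells, not well above background, and 9.51 and 9.72 in TT cells. It was at least 38.1-fold higher (limma adjusted p = 0.00131). SV2A and SYN1 differed by 2.60 and 1.91. SYN2, SV2B and SV2C were near background in both lines, and none of the 3 was called.

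The active zone scaffolds divided. RIMS2, a RIM protein that tethers vesicles and calcium channels, read 6.18 and 6.32 in Nthy-ori 3-1 cells and 10.52 and 10.64 in TT cells, a difference of 4.33 ± 0.14 (SE, limma adjusted p = 0.00189). BSN, which encodes the scaffold Bassoon, read 4.66 and 4.84 against 7.32 and 7.55, a difference of 2.68 ± 0.16 (SE, limma adjusted p = 0.00526), and of 1.32 with normexp background correction. ERC1, the broadly expressed ELKS protein, read 9.72 and 9.38 against 8.01 and 8.18, a difference of -1.45 ± 0.19 (SE, limma adjusted p = 0.0207). ERC2, its neuronal relative, read 5.11 and 5.39 in Nthy-ori 3-1 cells and 1.66 and 2.44, not well above background, in TT cells, so it was at least 3.14-fold lower there (limma adjusted p = 0.0145). RIMS1 read 8.45 on Nthy-ori 3-1 control replicate 1 alone and 3.10 on replicate 2, and it was not called. PCLO, which encodes Piccolo, was well above background on no control Nthy-ori 3-1 array at any of its probes. It was at least 1.075-fold higher in TT cells at the probe that stands for it, which was not called (limma adjusted p = 0.237). At A_32_P109876, which read 1.81 and 1.77 against 6.23 and 6.33, it was at least 3.78-fold higher. Its remaining probe, A_33_P3282404, was well above background on no array of either line.

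Of the 4 genes of transmitter synthesis and loading, GAD1 was called. GAD1, a glutamate decarboxylase that makes GABA, read 6.68 and 7.09 in Nthy-ori 3-1 cells and 8.33 and 8.40 in TT cells, a difference of 1.48 ± 0.20 (SE, limma adjusted p = 0.0222). Its other probe read 9.78 on TT control replicate 1 and 6.60 on replicate 2, against 4.29 and 5.49, and did not pass (limma adjusted p = 0.194). GAD2, the second decarboxylase, SLC32A1, the vesicular GABA transporter, and SLC17A6, a vesicular glutamate transporter, were near background in both lines.

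The same line difference could be taken on 4 other arrays, those with the miR-375 mimic in the follicular line and its inhibitor in the TT line. On these arrays, which the control comparison did not use but on which the lines carry opposite reagents, 15 of the 43 genes were higher in TT cells and 1, VAMP3, was lower, against 10.6% and 9.08% of all gene names. Of the 24 genes called on the control arrays, 15 were called in the same direction on the reagent arrays. CPLX2 was at least 432-fold (432.1) and SYT4 at least 79.8-fold higher there, and SYT7 differed by 6.78. The genes called only on the control arrays included BSN, which differed by -0.45 ± 0.15 (SE, limma adjusted p = 0.144) on the reagent arrays. SYP differed by 4.02 and CPLX1 by 1.98 on them, less than on the control arrays. SYT5 was the 1 gene called only on the reagent arrays, at least 1.07-fold (1.068) higher.

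**Figure D2:**
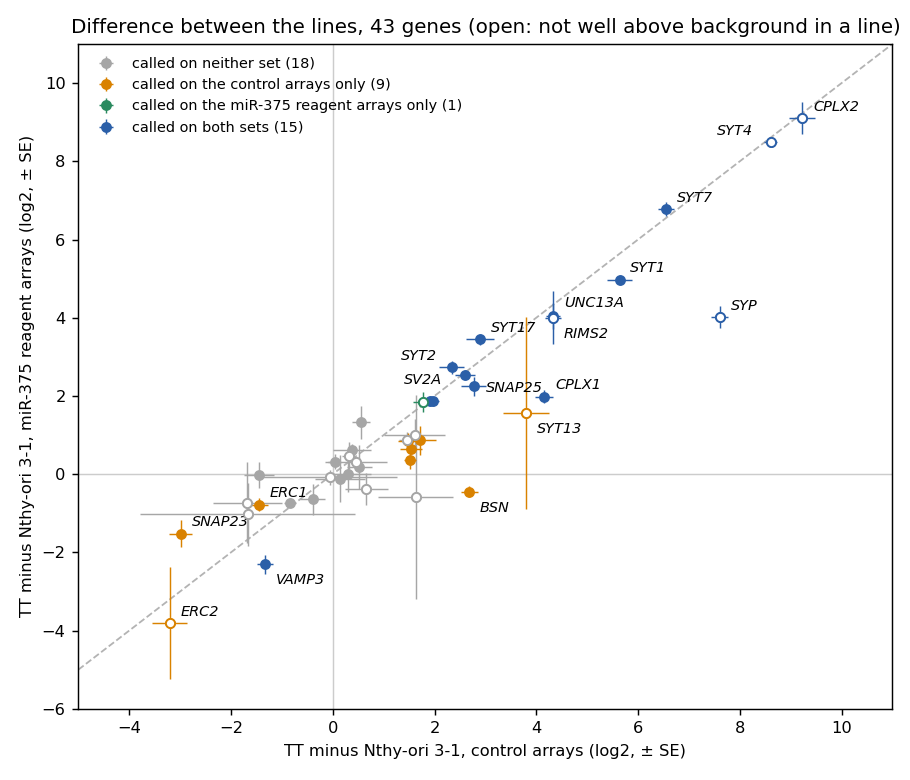
Log2 difference TT minus Nthy-ori 3-1 for the 43 genes on the control arrays (horizontal) and on the miR-375 reagent arrays (vertical), with SE bars and a dashed line of equality; an open symbol marks a gene not well above background in a line, whose plotted difference is that of the measured means. SYT4, CPLX2 and SYT7 lie near the line, while SYP, CPLX1 and BSN lie below it, BSN at 2.68 and -0.45.

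The number of calls between the lines, though not the direction of the named genes, depended on the TT arrays. The calls over all gene names fell along with those of the 43 genes when 1 TT array was left out. Without TT control replicate 1, 0 of the 43 genes (and 0 of all gene names) passed, with a smallest limma adjusted p over all gene names of 0.0507, and without TT control replicate 2, 6 were higher and 0 lower, although no named gene changed direction. On the reagent arrays 0 passed without either antagomiR-375 array.

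The second comparison asked what pre-miR-375 changed in Nthy-ori 3-1 cells. No gene passed an adjusted p of 0.05 there, neither of the 43 nor of all 36333 gene names fitted (0%), and the smallest limma adjusted p over all probes was 0.318. At an unadjusted p under 0.05, 12 of the 43 genes and 5406 of all gene names were found. The values below are therefore fold changes that were the same in sign on both slides. A gene counted as past the fold at a log2 fold change of at least 0.6, with its probe well above background on both arrays of the higher group. By this rule 8 of the 43 genes were higher with pre-miR-375, SYP, BSN, CPLX1, SYT11, SNAP25, RIMS2, VAMP8 and VAMP1, against 4.43% of all gene names. STX2 and SNAP23 were lower, against 4.61%. On both arrays of at least 1 group, 28 of the 43 genes and 19758 of all gene names were well above background. The median log2 fold change was 0.24 over the 43 genes and 0.0039 over all gene names. Those lower were both among the 9 broadly expressed genes, and 7 of those higher were among the other 34. By the same rule markers of other lists were past the fold too. In this line CALCA, CHGA and CHGB passed the background test with pre-miR-375 and on neither control array, CALCA at 8.12 and 4.51 against 3.91 and 3.57, CHGA at 4.91 and 5.13 against 3.46 and 2.09 and CHGB at 5.19 and 6.50 against 3.72 and 4.13. MAP2 was 0.73 and COL1A1 0.96 higher in log2, and CD68 was at -0.96. Their part in these counts was not tested.

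BSN read 4.66 and 4.84 on the control arrays and 8.03 and 7.83 on the pre-miR-375 arrays, 3.18 ± 0.16 higher in log2 (SE, n = 2 per group, limma adjusted p = 0.318). The groups did not overlap, which is likelier once a gene has passed the rule. The pre-miR-375 values of BSN lay above all 4 TT values of the same probe, 7.32 to 7.55. On the slides taken singly the difference was 3.37 and 2.99. With normexp background correction it was 1.67 and with the authors' log2 values 1.86, with adjusted p of 0.024 and 0.037.

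SYP read 1.91 and 2.11 on the control arrays, not well above background, and 5.49 and 6.15 on the pre-miR-375 arrays, well above it on both. It was at least 2.76-fold higher (limma adjusted p = 0.318), and its level with pre-miR-375 stayed below the TT values of 9.51 to 9.91. The fitted log2 difference was 3.82, and 0.83 with normexp and 1.03 with the authors' values. CPLX1 read 6.53 and 6.19 on the control arrays and 8.68 and 8.52 on the pre-miR-375 arrays, 2.24 ± 0.10 higher (SE, limma adjusted p = 0.318), again without overlap and below the TT values of 10.44 to 10.73.

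The other 5 differences were smaller. SYT11 read 5.19 and 5.77 against 5.94 and 6.81, 0.90 ± 0.13 higher (SE). SNAP25 read 10.09 and 10.60 against 10.78 and 11.31, 0.70 ± 0.08 higher (SE). VAMP8, a SNARE of granule and endosome fusion, read 13.19 and 12.73 against 13.71 and 13.55, and VAMP1 5.52 and 5.55 against 5.99 and 6.38, 0.67 and 0.65 higher. RIMS2 read 6.18 and 6.32 against 7.33 and 6.53, 1.14 higher on one slide and 0.22 on the other. For each of these 5 genes the arrays of the groups were separate, which is likelier once a gene has passed the rule. The limma adjusted p ran from 0.318 for SNAP25 and SYT11 to 0.544 for RIMS2.

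STX2, a plasma membrane syntaxin of many non-neuronal cells, read 10.85 and 10.15 on the control arrays and 9.30 and 8.52 on the pre-miR-375 arrays, -1.59 ± 0.08 (SE, limma adjusted p = 0.318). The slides gave -1.55 and -1.63, and the pre-miR-375 values lay on either side of the TT range of 8.81 to 9.06. SNAP23 read 7.08 and 7.55 against 5.78 and 6.52, -1.17 ± 0.12 (SE, limma adjusted p = 0.318), with -1.30 and -1.03 on the slides. The arrays of the groups were separate for each of these genes, which is likelier once a gene has passed the rule. ERC1, at 9.72 and 9.38 against 9.10 and 8.80, came to -0.60 and lay just under the fold asked for, and its other probe gave -0.49. Larger mean differences in this direction came from RIMS1 and from probes that did not stand for their gene. RIMS1 read 8.45 and 3.10 on the control arrays and 4.22 and 3.88 on the pre-miR-375 arrays. Of these values 8.45 alone was well above background, and the sign differed between the slides. UNC13B probe A_23_P253395 read 6.43 and 7.87 on the control arrays and 3.54, not well above background, and 6.13 on the pre-miR-375 arrays, -2.31 ± 0.42 (SE, limma adjusted p = 0.326), whereas the probe that stood for the gene gave -0.51. ERC2 probe A_24_P205045, which holds GAACAA, read 3.70 and 6.71 against 2.74 and 3.39, of which 6.71 alone was well above background, with a measured difference of -2.14 ± 0.84 (SE, limma adjusted p = 0.467). The arrays of the groups were separate for the UNC13B and ERC2 probes, but the ERC2 probe was too dim for a fold change.

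**Figure D3:**
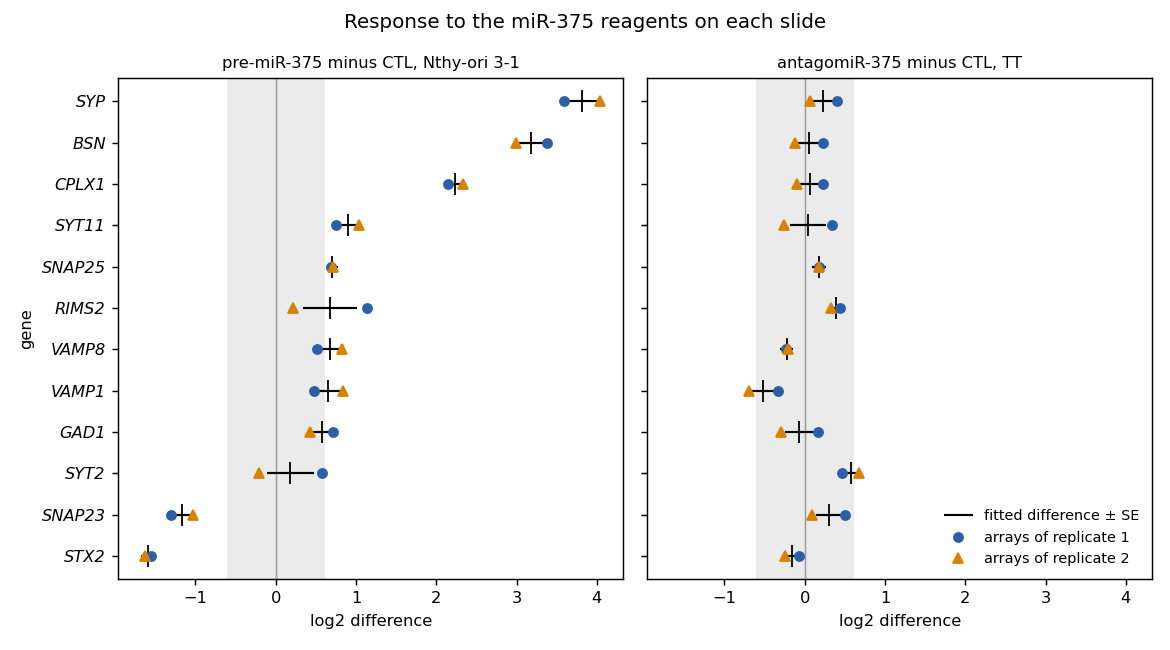
Log2 difference between miR-375 reagent and control for the genes past the fold in Nthy-ori 3-1 cells and for SYT2 and GAD1, in Nthy-ori 3-1 cells (left) and TT cells (right); circles and triangles are the arrays of replicates 1 and 2, black marks the fitted difference ± SE, and grey the range under 0.6. The fitted differences of SYP, BSN and CPLX1 are 2.24 or more in Nthy-ori 3-1 cells, and these genes lie between -0.13 and 0.40 on every TT slide.

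GAD1 read 6.68 and 7.09 on the control arrays and 7.40 and 7.51 on the pre-miR-375 arrays, 0.57 ± 0.13 higher (SE, limma adjusted p = 0.345), short of the fold. A single pre-miR-375 array read high for 3 genes. On pre-miR-375 replicate 2 SYT13 read 8.19, PCLO 8.46 and ERC2 7.54, whereas replicate 1 read 2.01, 1.92 and 3.99, none of these 3 well above background. The sign of ERC2 differed between the slides, and the fitted differences of SYT13 and PCLO had SE of 1.79 and 1.65. That array had 35513 gene spots well above background, against 32071 to 33104 on the other Nthy-ori 3-1 arrays, and the part of this in the 3 readings was not tested.

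SYT2, a fast calcium sensor related to SYT1, gave readings that depended on the probe. At probe A_23_P104098, which stood for the gene, the control arrays read 5.11 and 5.64 and the pre-miR-375 arrays 5.68 and 5.43, so the groups overlapped and the difference was 0.18 ± 0.29 (SE, limma adjusted p = 0.817). At A_33_P3327771 the control arrays read 6.13 and 6.79 and the pre-miR-375 arrays 1.80 and 2.55, neither of the latter well above background, so it was at least 5.14-fold lower with pre-miR-375 (limma adjusted p = 0.318). At A_33_P3397785 the control arrays read 7.95 and 5.80 and the pre-miR-375 arrays 5.71 and 5.82, so 1 control array stood apart. The remaining probes, A_33_P3214899 and A_33_P3365755, differed by -0.20 and 0.23. The probes of this gene therefore ranged from at least 5.14-fold lower to 0.23 higher in log2.

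In TT cells the mean differences of the SYT2 probes had 1 direction. With antagomiR-375, A_33_P3327771 read 5.93 and 6.33 against 4.74 and 5.05 on the control arrays, 1.24 higher, and A_23_P104098 read 8.21 and 8.35 against 7.75 and 7.67, 0.57 ± 0.11 higher (SE, limma adjusted p = 0.512). The remaining probes had means higher by 0.13, 0.38 and 0.50. At A_33_P3397785, the probe at 0.13, the slides differed in sign, with -0.02 and 0.28. Between the lines on the control arrays, A_23_P104098 was 2.34 ± 0.24 higher in TT cells (SE, limma adjusted p = 0.0134), from 5.11 and 5.64 to 7.75 and 7.67, while A_33_P3327771 gave -1.57 and A_33_P3397785 gave -0.60. The direction of the line difference for SYT2 thus held at 3 of its 5 probes, and at A_33_P3397785 the groups overlapped. On the reagent arrays all 5 probes had higher means in TT cells. The difference there was 2.73 at A_23_P104098, at least 4.08-fold at A_33_P3327771 and 0.64 in log2 at A_33_P3397785.

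**Figure D4:**
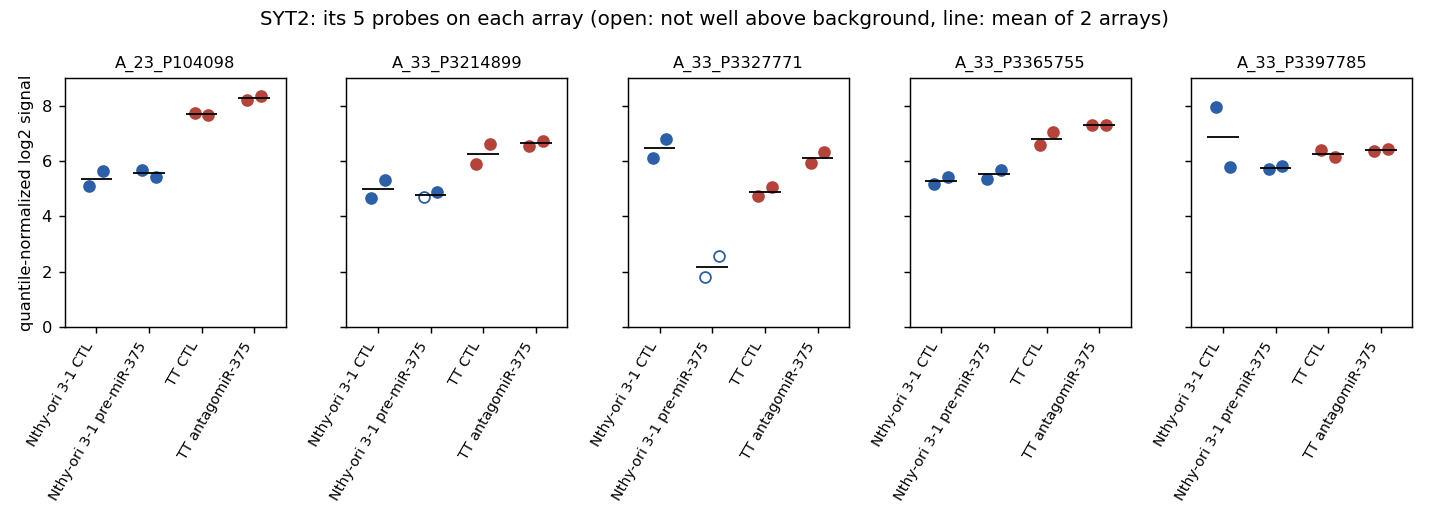
Quantile-normalized log2 signal of the 5 SYT2 probes on each of the 8 arrays by group, with the mean of the 2 arrays as a line and values not well above background as open circles. At A_33_P3327771 the pre-miR-375 arrays lie at 1.80 and 2.55, below all other arrays, whereas at A_23_P104098 the Nthy-ori 3-1 arrays lie between 5.11 and 5.68.

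The third comparison asked what antagomiR-375 changed in TT cells. By the same rule 2.64% of all 36328 gene names fitted were higher and 1.93% were lower. Of the 43 genes, none was past the fold in either direction at the probe that stands for it. None passed an adjusted p of 0.05, nor did any gene name (0%), and the smallest limma adjusted p over all probes was 0.512. At an unadjusted p under 0.05 there were 6 of the 43 genes and 3566 gene names. The median log2 fold change was 0.05 over the 43 genes and -0.0003 over all gene names.

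BSN read 7.32 and 7.55 in control TT cells and 7.55 and 7.42 with antagomiR-375, a difference of 0.05 ± 0.15 (SE, limma adjusted p = 0.921), with overlapping groups. GAD1 read 8.33 and 8.40 against 8.50 and 8.10, -0.07 ± 0.18 (SE, limma adjusted p = 0.915), again with overlap. Its other probe read 9.78 and 6.60 against 6.34 and 6.22, -1.92 ± 1.05 (SE, limma adjusted p = 0.648), so the size for GAD1 depends on the probe and on TT control replicate 1. At the probes that stand for their genes, the largest differences among those well above background on all TT arrays were UNC13A and SYT2, 0.57 each, and VAMP1, -0.51. SYT2 probe A_33_P3327771, which does not stand for its gene, was 1.24 higher. VAMP3, at 10.29 and 10.41 against 9.89 and 9.88, came to -0.47. A p above the threshold does not show that these genes did not differ, and 2 arrays against 2 cannot give an exact permutation p under 0.333 for a single gene.

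The difference between the response in Nthy-ori 3-1 cells and that in TT cells was tested in a fit of both lines. The smallest limma adjusted p over all probes was 0.149, shared by SYP, BSN, CPLX1, STX2 and SYT2 probe A_33_P3327771. At that SYT2 probe, which does not stand for its gene, the measured difference was -5.52 ± 0.13 (SE). Its pre-miR-375 readings were not well above background. The differences were 3.13 ± 0.24 for BSN, 2.17 ± 0.19 for CPLX1 and -1.43 ± 0.14 for STX2 (SE), so the responses of the lines were not shown to differ by this test.

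The other genes of the vesicle pathway were taken from a longer list of 103, of which 102 were on the array under the name used and LIN7C was not. On the control arrays 24 of the 102 were higher and 17 lower in TT cells, against 11.4% and 10.0% of all gene names. Their median log2 difference was 0.05. On both arrays of at least 1 group, 89 of the 102 and 22691 of all gene names were well above background. After pre-miR-375, 10 were past the fold upward in the follicular line and 6 downward, against 4.43% and 4.61% of all gene names. The median was 0.08, and 80 of the 102 and 19758 of all gene names were well above background in that way. Those upward included RAB3A, the Rab protein of synaptic vesicles, at 7.28 and 6.44 against 8.19 and 7.47, SCAMP5, a vesicle membrane protein, 1.38 higher, and LIN7B, an active zone adaptor, 1.27 higher. Those downward included the endosomal and Golgi SNAREs STX6 and YKT6, by -1.16 and -0.86. With antagomiR-375 in TT cells 7 were past the fold upward and 1 downward, against 2.64% and 1.93% of all gene names. YKT6, 0.61 higher, was the gene of this list past the fold in opposite directions in the 2 lines, and it was named after its values were seen.

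Promoters from RefSeq (GRCh38.p14, 250 bases before to 50 after each start) were found for 36 of the 43 genes, 55 starts in all. They were searched on both strands for CAGCACC and GGACAGC, a stretch of each part of the bipartite RE1 element. CAGCACC was in 11 of the 55 promoters (20.0%), those of GAD2, PCLO, RIMS1, SNAP23, SV2B, SV2C, SYN1, SYT3, SYT4 and UNC13A, and in 7.75% of all 35116 promoters. GGACAGC was in 5 of the 55 (9.09%), those of BSN, ERC1, GAD2, SYT6 and UNC13A, and in 6.03% of all promoters. BSN and SYP, both past the fold upward after pre-miR-375, are shown here by the 250 bases before the start, with any match in capitals, at chr3:49554227-49554476 on the plus strand and chrX:49200194-49200443 on the minus strand. SYP has no match to either word in its window.

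BSN: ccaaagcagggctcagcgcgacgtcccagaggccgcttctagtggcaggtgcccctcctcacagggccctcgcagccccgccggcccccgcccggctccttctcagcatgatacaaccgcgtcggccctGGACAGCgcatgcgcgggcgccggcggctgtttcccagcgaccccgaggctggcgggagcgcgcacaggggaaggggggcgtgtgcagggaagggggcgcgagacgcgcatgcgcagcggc

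SYP: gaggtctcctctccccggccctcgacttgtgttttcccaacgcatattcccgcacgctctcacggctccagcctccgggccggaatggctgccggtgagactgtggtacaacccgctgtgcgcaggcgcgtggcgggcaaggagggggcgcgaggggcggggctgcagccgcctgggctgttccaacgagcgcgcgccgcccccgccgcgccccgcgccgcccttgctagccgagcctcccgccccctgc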

How the data were processed

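The authors extracted RNA of the transfected cells, named total RNA in the methods and polyA RNA in the labels, labelled it with Cy3 and hybridised it to Agilent SurePrint arrays. Per condition the methods give biological replicates. The scanner files that the authors deposited, written by Feature Extraction 10.10.1.1, hold a processed intensity per spot, which is background subtracted and not normalized between arrays. They also deposited a table of normalized log2 values, used here as an alternative.

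Control spots and 341 to 428 outlier spots per array were dropped. The log2 processed intensities were averaged over the spots of a probe and quantile normalized over all 8 arrays (limma 3.58.1, R 4.3.3). Responses were fitted in each line separately (lmFit, eBayes) blocked by replicate number, while the lines were compared on 4 arrays without it. Adjusted p are Benjamini-Hochberg values over all probes. Arrays of equal number in a line share a slide, and their deviations from the group means correlated at 0.785 over 24188 probes in Nthy-ori 3-1 cells and at 0.329 over 27237 in TT cells. The steps were tested on simulated data. The number of arrays limits the precision.

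The 43 genes, the roles, the marker and pathway lists and the rules were chosen with earlier results of these data known. Values are given for the 8 genes with the largest called line difference in each direction, all genes past the fold in a response, and SYT2, BSN and GAD1. Single genes whose probes disagreed or that read high on 1 array were added after their values were seen. One marker of the C cell list and one of the follicular list are not reported here.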

Additional observations from a re-analysis of the deposited data

How the results depend on the processing

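The alternatives were other background corrections (normexp, offset 50), scaling to the 75th percentile, quantile normalization within each line, the authors' log2 values, outlier spots kept, dim probes left out, a trend in eBayes, the median over a gene's probes, other blocks, and each array or pair left out. After pre-miR-375, the genes past the fold upward went from 8 to 5 with normexp and to 5 with the authors' values. Those at a limma adjusted p of 0.05 went from 0 to 6 and 3. Over all gene names, those past the fold upward went from 1608 to 801 and 993 in the same settings. Those at a limma adjusted p of 0.05 went from 0 to 1257 and 458. Direction was kept in 142 of 144 values, the exceptions being SYT2 at -0.0092 with the median over probes and at -0.21 without replicate 1, against 0.58 without replicate 2. Much of this count was fixed in advance. The genes past the fold had the same sign on both slides by rule, so leaving out a replicate could not reverse them. Other blocks, the trend and leaving out dim probes do not change the fitted difference itself, in this comparison or the others. In TT cells, where a pair left out means that the lone pair is assumed to vary like the other line, 1 to 2 genes were past the fold upward and 0 to 1 downward without either replicate. Direction was kept in 32 of 36 values. With the authors' values BSN was at -0.065 and GAD1 at 0.023, and with a replicate left out BSN ranged from -0.13 to 0.23 and GAD1 from -0.30 to 0.16. The median over probes gave -0.99 for GAD1.

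Between the lines, the genes lower in TT cells went from 4 to 2 on the control arrays and from 1 to 0 on the reagent arrays with the replicate block, whose numbers do not pair the samples across lines. On the reagent arrays they went to 2 with slide as a random block and to 2 with dim probes left out. With single arrays left out, where a lone array is assumed to vary like those of the other line, the genes higher in TT cells on the control arrays ranged from 0 without TT control replicate 1, and 6 without TT control replicate 2, to 19, and those lower from 0 to 4. On the reagent arrays those higher ranged from 0, without either antagomiR-375 array, to 15, and those lower from 0 to 1. Direction was kept in 180 of 180 and 144 of 144 values, counts that include the settings that cannot change a difference. With normexp the differences on the control arrays were smaller, from 2.68 to 1.32 for BSN, from -2.99 to -1.36 for SNAP23, from 7.60 to 3.65 for SYP, from 8.61 to 4.87 for SYT4, from 4.33 to 1.23 for UNC13A and from -3.20 to -0.66 for ERC2. Scaling to the 75th percentile moved the median log2 difference of all gene names on the reagent arrays from -0.041 to -0.137. The causes were not tested.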
